A study of Mus musculus with 8 samples.

Results

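The miRNA families numbered miR-669, miR-467, miR-466 and miR-297 were followed in small RNA sequencing of mouse embryonic stem (ES) cells. They were taken by name, as every mature miRNA listed under 1 of these 4 family numbers, which gave 80 names of the 1915 in the deposited count table. Of these, 71 had a count in at least 1 library and 9 had no count in any library. Of the 71, 41 passed the filter on low counts and were tested, and 30 did not (1 to 50 counts over all libraries). The filter acts on counts scaled to library size and not on this total, so miR-466d-3p was tested with 37. By family, 6 names belonged to miR-297, 31 to miR-466, 13 to miR-467 and 30 to miR-669, and 3, 19, 8 and 11 of them were tested.

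Most of these miRNAs are encoded side by side in an intron of Sfmbt2, a gene for a Polycomb group protein that is expressed from the paternal copy in the mouse placenta. The array is specific to rodents, arose by repeated local duplication, and is known for its expression in ES cells and in the trophoblast lineage. A miRNA hairpin is cut to a short duplex, and an Argonaute protein keeps 1 strand, the 5p or the 3p arm, which then pairs with target RNAs through its seed near the 5′ end. AGO2 is the Argonaute known for slicing targets, whereas AGO1 binds miRNAs without strong slicing.

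The study held 8 libraries in 4 groups of 2, all from cells with a 129/Ola background that the labels describe as blastocyst-derived. Wild type E14 cells gave libraries A and B. The Ago2 knockout group is 1 library from each of 2 knockout lines, called 1 and 2. The other groups came from Ago2-null cells with an inducible ectopic AGO1, named after knockout line 1, kept in puromycin, and sequenced without doxycycline (A and B) and with doxycycline at 1 µg/mL (A and B). All 3 groups other than wild type therefore lack Ago2, and both AGO1 groups carry the same source label, as 1 line. The labels do not say that A and B were separate cultures, so p-values measure the spread between these libraries, which may be technical. Small RNA counts do not measure Ago2 or AGO1 themselves, so the knockout and the induction could not be checked here.

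Total counts ranged from 163467 in knockout line 2 to 1326638 in the induced line A. A count of 0 allows up to 3 counts, which is between 2.57 CPM (counts scaled to library size, here with TMM factors) and 15.1 CPM by library. The miRNAs of the miR-290 and miR-302 clusters, which mark pluripotent cells, summed to between 242221 and 317279 CPM in every library. The miR-290 cluster made up most of this sum. Its miR-295-3p reached 209925 counts in a library, while the highest count of any miR-302 or miR-367 arm was 159 (miR-302d-3p). Liver miR-122 was at 0 and the muscle list stayed at or below 6.62 CPM. The neural list (6 of 7 names with a count) summed to 506 to 627 CPM in wild type, 563 to 604 in the knockout, 590 to 731 in the uninduced and 424 in both induced libraries. The fibroblast list (4 of 6 names) was at 65.3 to 71.1 CPM in wild type and higher in every other library, at 85.5 to 139 in the knockout, 97.2 to 116 in the uninduced and 88.7 to 114 in the induced AGO1 line. The blood list (6 of 9 names with a count, with miR-142a and miR-150 among them) summed to 1849 to 1886 CPM in wild type, 5824 to 6500 in the knockout, 6369 to 6933 in the uninduced and 3779 to 3949 in the induced AGO1 line. Nearly all of this sum was miR-142a and miR-150. No arm of miR-144 exceeded 3 counts in a library, and miR-223 and miR-451a were at 0. The part of these lists in the results was not tested.

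The positions of the hairpins were read from the GENCODE vM21 annotation of GRCm38, the assembly that the mm10 build of the deposited processing corresponds to. Sfmbt2 spans chr2:10370510-10595253 on the plus strand, and 71 of the 81 annotated hairpin genes of the 4 families lie inside it. They form an array of 51.6 kb, chr2:10466663-10518279, which sits in a single Sfmbt2 intron, chr2:10461473-10523944, and none of them overlaps an Sfmbt2 exon. The other 10 hairpin genes lie elsewhere. By name, 64 of the 80 have genes in Sfmbt2 only, 5 have genes both there and elsewhere, and 9 have genes elsewhere only. Both arms of miR-466a matched no gene under that name. A gene annotated only as Mir466, at chr2:10507918-10507990 in the array, was assigned to no name. The first class held 89.8% of the 19409 counts of the 4 families, the second 2.93%, the third 4.38%, and miR-466a 2.92%. Several names stand for many copies: miR-669a has 12 genes, miR-467a has 10 and miR-466b has 8, so their counts cannot be assigned to a hairpin. Names with the same or nearly the same mature sequence may also share reads, and each was counted here as a member.

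The 3 tested miRNAs that lie outside Sfmbt2 are the ones whose mature sequences could be read from the RefSeq table of GRCm38.p6. They are shown 5′ to 3′ for a repeat that was read here only in members outside Sfmbt2. Capitals mark the seed, bases 2 to 8.
miR-467h: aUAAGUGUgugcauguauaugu
miR-466k: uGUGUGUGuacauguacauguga
miR-466i-3p: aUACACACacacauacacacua
The first is at chr9:115381898-115381919, where no other gene is annotated. The second is at chr3:85467396-85467418 in Gm37240, and the third at chr13:17747552-17747573 in Cdk13, all on the plus strand. The repeat also runs through the hairpin of miR-467h, where capitals mark the mature miRNA.
Mir467h: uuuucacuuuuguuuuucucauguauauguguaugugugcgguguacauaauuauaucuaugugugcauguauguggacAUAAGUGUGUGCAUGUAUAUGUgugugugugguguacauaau
The table held 8 mature sequences of the 4 families, none of them of miR-297. All 8 contained UGUGUG or its reverse complement CACACA, read on the RNA strand (4 with each). Among all 1679 mature sequences of the table, 40 contained either, or 2.38%. The 3 seeds shown differ from each other, and in the table the seed of miR-467h was shared with miR-668-5p only. A match of these letters is a description of the sequence, and the miRNAs of the Sfmbt2 array had no entry in the table.

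**Figure D1:**
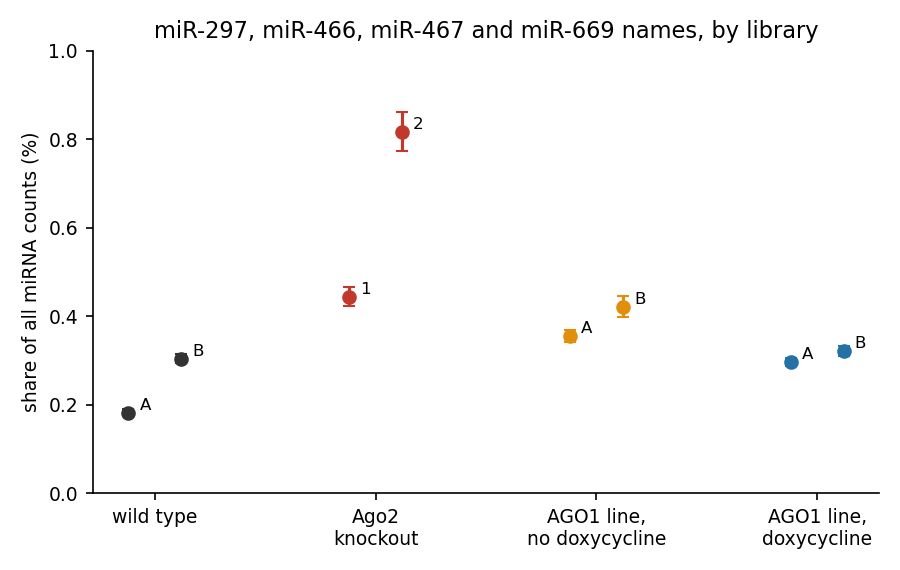
Share of all miRNA counts (%, vertical axis) held by the 80 names in each of the 8 libraries, by group; bars are 95% exact binomial intervals of the counts. Both knockout libraries lie above both wild type libraries, and knockout line 2, at 0.816%, lies above all other libraries.

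As a group, the 4 families took a larger share of the miRNA counts in the Ago2 knockout than in wild type. The share was 0.182% in wild type A and 0.303% in wild type B, against 0.444% in knockout line 1 and 0.816% in line 2. Without doxycycline, the AGO1 libraries A and B gave 0.356% and 0.422%. With doxycycline, A and B gave 0.296% and 0.321%. The exact binomial 95% intervals (Clopper-Pearson) cover counting error alone, as the reads carry no molecular identifiers and may be copies of 1 molecule. They were narrow, such as 0.174 to 0.191% for wild type A and 0.773 to 0.861% for knockout line 2. By their values, the knockout libraries did not overlap with wild type or with the uninduced line, whereas the induced line overlapped with wild type. The counting intervals of knockout line 1 (0.423 to 0.466%) and uninduced B (0.399 to 0.446%) did overlap. Group means were 0.243% ± 0.0857 in wild type, 0.630% ± 0.263 in the knockout, 0.389% ± 0.0466 in the uninduced and 0.308% ± 0.0179 in the induced line (SD, n = 2). With 2 libraries against 2, a 2-sided exact permutation test cannot go below p = 0.333. In bulk libraries such as these, a change in a share of cells and a change in RNA per cell cannot be told apart. Depth moved with the share: the library with the highest share, knockout line 2, had the lowest total (163467 counts), and its part was not tested.

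The members also moved together between the wild type libraries and between the knockout lines. Of the 41 tested members, 39 had a higher CPM in wild type B than in A, against 36.6% of all 475 tested miRNAs, and the share of the 4 families was 1.66 times higher in B. In the knockout, 40 of 41 were higher in line 2 than in line 1, against 50.9% of all tested miRNAs, with a share 1.84 times higher. In the AGO1 line the members were closer to all tested miRNAs. In the uninduced library B 24 of 41 members were higher than in A, against 47.2% of all tested, with a share 1.19 times higher. In the induced library B 22 of 41 were higher, against 46.1% of all tested, with a share 1.09 times higher. Relative to their own total, the members differed little between wild type A and B: the chi-square per degree of freedom was 0.822 over the 39 members with enough counts, where 1 is the level of counting noise. It was 2.17 for the knockout lines, 2.05 for the uninduced and 2.34 for the induced libraries. Over all miRNAs with enough counts the same measure was 14.0, 52.8, 37.5 and 23.1, so no pair of libraries was the same library deposited again.

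A few names carried most of the counts. miR-467c-5p alone held 16.0% of the counts of the 4 families, and 5 names (miR-467c-5p, miR-467a-5p, miR-669p-5p, miR-669a-5p and miR-466g) held 49.2%. miR-467c-5p ranked 98 by mean CPM among all listed miRNAs. By family, miR-467 was at 1005 ± 246 CPM in wild type and 2479 ± 777 CPM in the knockout, and miR-466 at 578 ± 171 and 1378 ± 727 CPM. miR-669 was at 897 ± 250 and 1338 ± 391.96 CPM, and miR-297 at 70.4 ± 34.0 and 146.6 ± 41.8 CPM (SD, n = 2). The mean was higher in the knockout in all 4 families, and the SD in the knockout was wide because line 2 was the higher library.

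**Figure D2:**
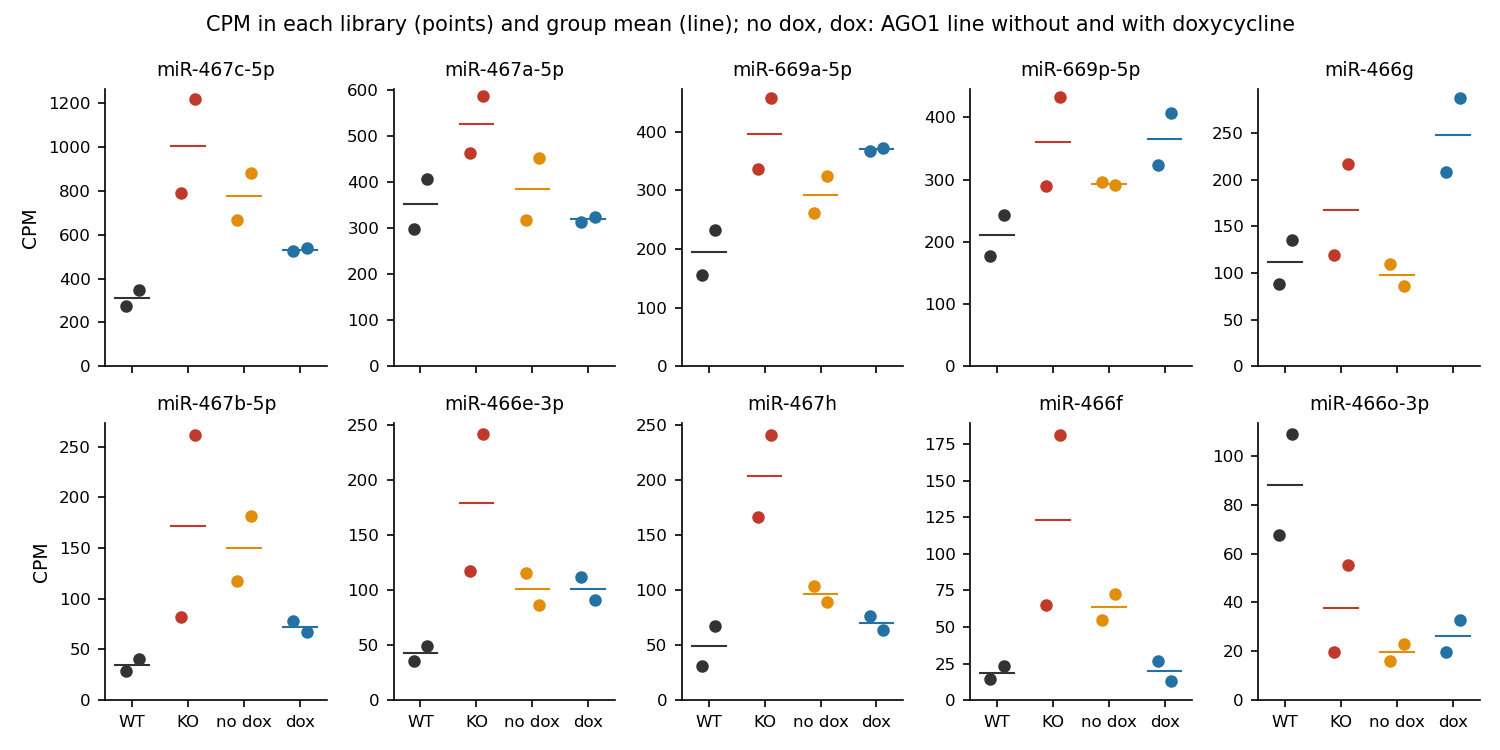
CPM (vertical axes, linear, each starting at 0) of 10 members in each library, with lines at group means; WT is wild type, KO the Ago2 knockout, no dox and dox the AGO1 line without and with doxycycline. miR-467c-5p, miR-467b-5p, miR-466e-3p, miR-467h and miR-466f are higher in both knockout libraries than in both wild type libraries, and miR-466o-3p is lower in both.

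The comparison of the Ago2 knockout with wild type asks which of these miRNAs differ in level between the knockout lines and wild type cells. The part of Ago2 loss, apart from other differences between the lines, was not tested. Members rose far more often than they fell: of 41 tested, 20 were called higher and 3 lower (edgeR quasi-likelihood F test, Benjamini-Hochberg adjusted p under 0.05 over 475 miRNAs). Over all 475 tested, 57.7% were called, 25.5% as higher and 32.2% as lower. The share of members called was thus near the background, and the directions differed, with 48.8% of members higher and 7.32% lower. The median log2 fold change was 1.08 over the members and -0.13 over all tested miRNAs. Both knockout libraries lay above both wild type libraries for 25 members, against 34.3% of all tested, and below them for 4, against 43.2% of all.

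miR-467 was the family with the highest share of rises: 6 of 8 members were called higher, none lower, and the median log2 fold change was 1.51. The most abundant member, miR-467c-5p (Mir467c, chr2:10473931-10474027), was at 273 and 347 CPM in wild type A and B, against 789 and 1218 CPM in knockout lines 1 and 2. Both knockout libraries were far above both wild type libraries, and the fitted log2 change was 1.69 ± 0.26 (SE, edgeR adjusted p = 0.000556). miR-467b-5p (chr2:10481248-10481320) was at 28.5 and 40.5 CPM in wild type and at 82.2 and 262 CPM in the knockout, a change of 2.23 ± 0.51 (edgeR adjusted p = 0.00484). miR-467d-3p and miR-467e-5p rose by 1.33 ± 0.35 and 1.20 ± 0.36 (edgeR adjusted p = 0.00884 and 0.0172). The groups did not overlap for any of these 4, and line 2 was the higher knockout library each time.

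The second most abundant member, miR-467a-5p, did not pass the test. It was at 299.2 and 408 CPM in wild type and 463 and 589 CPM in the knockout, a change of 0.57 ± 0.26 (edgeR adjusted p = 0.0847). The other arm of the same name, miR-467a-3p, is 1 order of magnitude less abundant and was called higher, from 9.50 and 27.9 CPM to 37.3 and 126 CPM, a change of 1.93 ± 0.63 (edgeR adjusted p = 0.0263). miR-467h, the chromosome 9 miRNA printed above, was chosen here after its values were seen. It rose from 30.9 and 67.5 CPM to 167 and 242 CPM, a change of 2.01 ± 0.39 (edgeR adjusted p = 0.00198). A name annotated outside Sfmbt2 thus rose as well. The other tested names annotated outside the gene, miR-466i-3p and miR-466k, had log2 fold changes of 0.09 ± 0.40 and -0.69 ± 0.73 and did not pass. How reads that match several hairpins were counted is not stated. Whether the reads under these names came from the annotated positions was not tested.

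Within miR-466, the 3p arms rose most often. Of 9 tested 3p names, 6 were called higher and 1 lower, with a median log2 fold change of 1.87, whereas of 7 tested 5p names 2 were called higher and none lower, with a median of 1.09. miR-466e-3p (chr2:10479088-10479171) was at 35.6 and 49.5 CPM in wild type and at 117 and 242 CPM in the knockout, a change of 2.02 ± 0.40 (edgeR adjusted p = 0.00212). miR-466a-3p was at 29.7 and 53.1 CPM in wild type and 115 and 201 CPM in the knockout (1.87 ± 0.41, edgeR adjusted p = 0.00376). The groups were apart for both. The counts of miR-466e-3p and miR-466a-3p were close in each library, such as 47 and 46 in knockout line 1. Neither sequence was available, so whether names of this family share reads was not tested. Their calls cannot be taken as separate lines of evidence. miR-466c-3p and miR-466b-3p rose by 2.22 ± 0.47 and 2.21 ± 0.55 (edgeR adjusted p = 0.00291 and 0.00697).

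miR-466f and miR-466n-5p completed the 5 largest rises among members with a mean of at least 20 CPM. miR-466f, which has hairpins both in the array and elsewhere, was at 14.2 and 23.4 CPM in wild type and at 64.7 and 181 CPM in the knockout (2.58 ± 0.55, edgeR adjusted p = 0.00331). miR-466n-5p was at 8.31 and 14.4 CPM against 24.9 and 85.5 CPM (2.06 ± 0.62, edgeR adjusted p = 0.017). Both knockout libraries were above both wild type libraries in each case, with line 2 well above line 1. miR-466g, the most abundant miR-466 member (chr2:10514595-10514674), overlapped between the groups, at 87.9 and 135 CPM in wild type and 120 and 216 CPM in the knockout. Its change was 0.55 ± 0.37 and did not pass (edgeR adjusted p = 0.223).

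miR-669 moved least. Of 11 tested names 3 rose and 1 fell, the median log2 fold change was 0.05, and none of the 3 tested 3p arms was called. miR-669a-5p was at 156 and 233 CPM in wild type and 336 and 458 CPM in the knockout (1.02 ± 0.27, edgeR adjusted p = 0.0106). miR-669p-5p was at 177 and 244 CPM in wild type and 289 and 433 CPM in the knockout (0.76 ± 0.28, edgeR adjusted p = 0.037). The knockout libraries were higher for both, by less than for the miR-467 and miR-466 members above. Whether miR-669a-5p and miR-669p-5p share reads was not tested. The other arm, miR-669a-3p, stayed between 72.2 and 134.04 CPM across both groups, with overlap and a change of -0.18 ± 0.37 (edgeR adjusted p = 0.69).

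Of the 3 members that fell, miR-466o-3p (chr2:10472540-10472623) was the only one with a mean above 20 CPM. It was at 67.7 and 109 CPM in wild type, against 19.9 and 55.3 CPM in knockout lines 1 and 2, so that the groups did not overlap, and its fitted change was -1.40 ± 0.52 (edgeR adjusted p = 0.0386). This call was lost under most other settings, DESeq2 among them (adjusted p = 0.13), and without knockout line 1 the change was -0.67. The other members called lower were named after their values were seen, and both rest on few reads. miR-669c-5p (chr2:10509296-10509404) had 3 counts over both knockout libraries and 59 over both wild type libraries, a level 6.04-fold lower with a 95% exact counting interval of 1.97 to 30.1. miR-297b-5p had 1 count against 34, or 10.4-fold lower with an interval of 1.75 to 425. No member was called lower with DESeq2, without wild type B or without knockout line 1. DESeq2 called 18 members higher, beside 104 higher and 116 lower of all 475 tested. With DESeq2 size factors, without TMM factors and in the fit of only the 2 groups compared, 1 member was called lower.

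**Figure D3:**
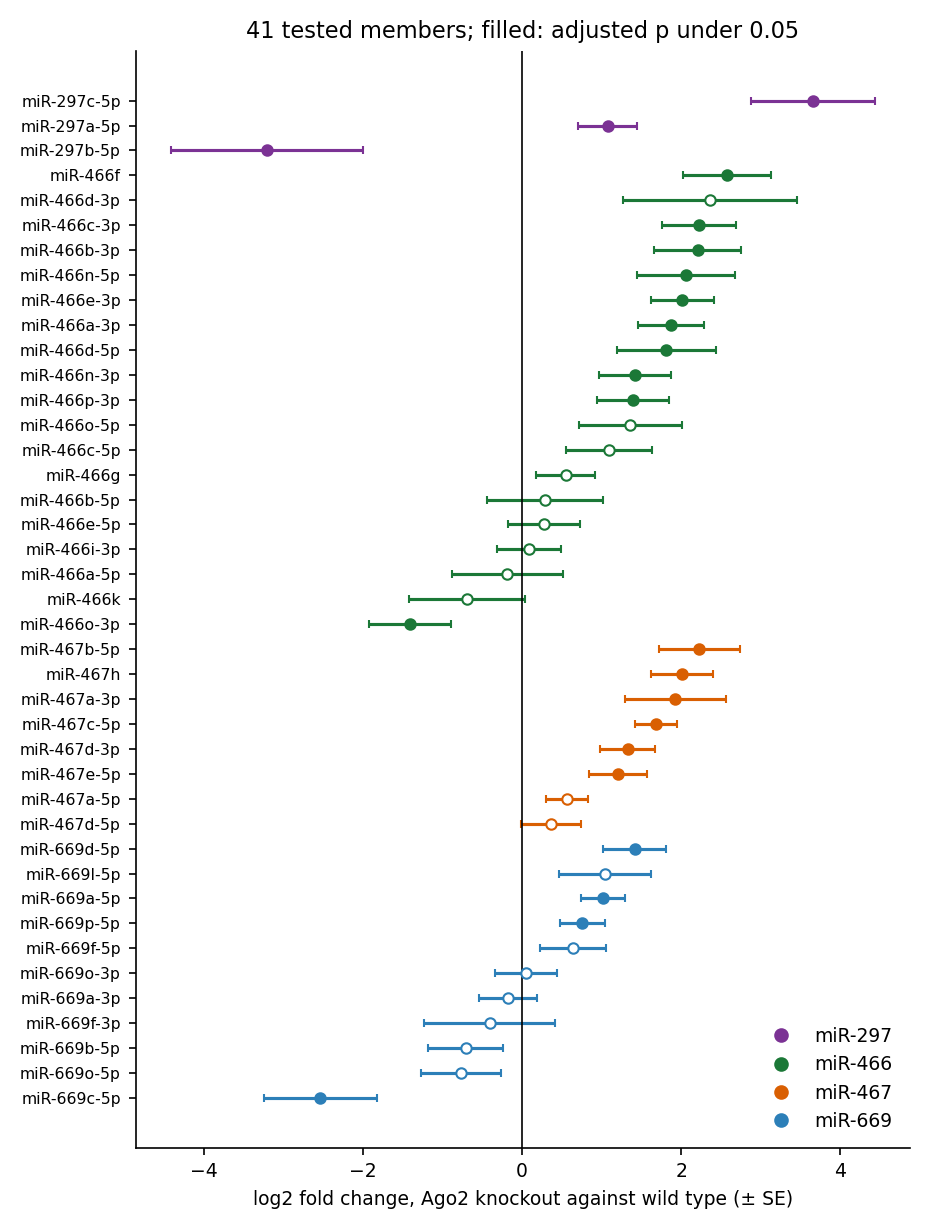
Log2 fold change (horizontal axis, ± SE) of the Ago2 knockout against wild type for the 41 tested members, grouped by family; filled points passed an adjusted p of 0.05. Filled points lie right of 0 for 20 members and left of it for 3, and the miR-467 points are all right of 0.

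The calls were then placed along the array. The 34 tested names with genes in Sfmbt2 only had 16 rises, 3 falls and a median log2 fold change of 1.07. Among names with 1 gene in the array, miR-466o-3p at 102.0 kb from the start of Sfmbt2 was called lower, while miR-467c-5p at 103.4 kb was called higher. miR-466e-3p at 108.6 kb and miR-467b-5p at 110.7 kb were also higher. At the other end, miR-467d-3p at 137.1 kb and miR-466n-5p at 143.2 kb were higher. Between them, miR-297c-5p at 138.5 kb and miR-466d-5p at 141.5 kb were called higher. There, miR-669c-5p at 138.8 kb and miR-297b-5p at 141.2 kb were called lower. The rise of miR-297c-5p was the largest of the members (3.65 ± 0.78, edgeR adjusted p = 0.00316). It also rests on few reads, 16 counts in the knockout against 4 in wild type. Fewer or no falls were called under the other settings named above, and no test was made of position.

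**Figure D4:**
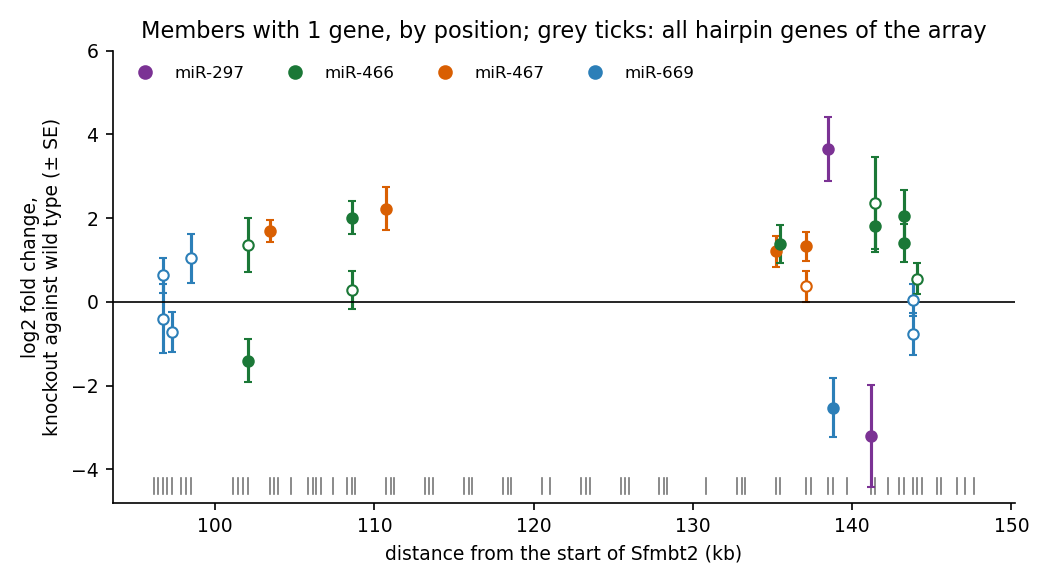
Log2 fold change (vertical axis, ± SE) of the Ago2 knockout against wild type for the 24 tested members with 1 gene, all in Sfmbt2, by distance from the start of Sfmbt2 (kb); grey ticks are all 71 hairpin genes of the array and filled points passed an adjusted p of 0.05. Filled points lie above 0 for most of the calls, the few below 0 are falls that did not hold under every setting, and the middle of the array, filled by names with many copies, holds no point.

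The knockout result was smaller with some libraries left out. Without wild type A, 14 of 46 members were called (12 higher, 2 lower), beside 38.8% of all 503 tested (104 higher, 91 lower), and without knockout line 2 the median over members was 0.57, against -0.19 over all tested. Without TMM factors the median of all tested miRNAs moved from -0.13 to 0.16, and that of members from 1.08 to 1.36, so the members lay 1.20 above all tested either way.

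Comparing the uninduced AGO1 line with the knockout asks how the line differs from the knockout lines before induction. No member was called, and neither was any of the 475 miRNAs (0%, edgeR, adjusted p under 0.05). At an unadjusted p under 0.05 edgeR gave 3 members and 72 miRNAs in all, and DESeq2 called 0 members and 15 miRNAs, with no adjusted p for 32 of the members. Most members were nevertheless at a lower level in the uninduced line: 37 of 41 log2 fold changes were negative, with a median of -0.44 against -0.01 over all tested. Both uninduced libraries lay below both knockout libraries for 14 members and above them for 2, against 22.5% and 22.1% of all tested miRNAs. miR-467c-5p was at 665.8 and 883 CPM in the uninduced libraries, which overlaps with its 789 and 1218 CPM in the knockout (-0.37 ± 0.26, edgeR adjusted p = 0.503). miR-467h, at 104 and 89.3 CPM, was below both knockout libraries and had the smallest adjusted p among the members (-1.04 ± 0.39, edgeR adjusted p = 0.27).

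The knockout lines did not give the same answer here. Without knockout line 1, 9 of 48 members were called lower and the median was -0.95, while 61 of all 527 miRNAs tested in that fit were called (11.6%, 35 higher and 26 lower). Without knockout line 2, which leaves the line the AGO1 cells are named after, no member was called and the median was -0.08, with 33 of all 520 called. miR-669c-5p had 19 counts in the uninduced libraries against 3 in the knockout, 3.61-fold higher with an interval of 1.06 to 19.0, but its edgeR adjusted p was 0.305.

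Induction of AGO1 was read from the line with doxycycline against the same line without it. Few members changed: 1 of 41 was called higher and 1 lower, whereas 28.6% of all tested miRNAs were called, 21.1% as higher and 7.58% as lower (edgeR, adjusted p under 0.05). The median log2 fold change was -0.09 over members and 0.03 over all tested. The induced libraries lay above both uninduced ones for 6 members and below them for 13, against 38.3% and 34.1% of all tested miRNAs. By contrast, 29 of 51 tested miRNAs of the Mirg part of the imprinted Dlk1-Dio3 region were called higher and 2 lower in this comparison, with a median of 1.19, and 6 of 18 of the miR-290 cluster were called higher. Those lists are set beside the members as counts, and the difference between lists was not tested.

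miR-466g was the member that rose. It was at 109 and 86.0 CPM without doxycycline and at 208 and 287 CPM with it, a change of 1.32 ± 0.36 (edgeR adjusted p = 0.0222). Both induced libraries were above all others, except that knockout line 2, at 216 CPM, lay between them. miR-466f fell, from 54.6 and 72.8 CPM to 26.5 and 13.0 CPM, a change of -1.63 ± 0.54 (edgeR adjusted p = 0.0463). The induced libraries overlapped for miR-466f with wild type, where it was at 14.2 and 23.4 CPM.

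Several miR-467 members were lower in both induced libraries without passing the test. miR-467c-5p was at 526 and 537 CPM with doxycycline, below both uninduced libraries (-0.54 ± 0.25, edgeR adjusted p = 0.141). miR-467b-5p was at 77.9 and 66.8 CPM, against 117 and 182 CPM without doxycycline (-1.02 ± 0.47, edgeR adjusted p = 0.135). miR-467e-5p had a change of -0.74 ± 0.35 with the same adjusted p as miR-467c-5p. In the fit of only the 2 groups compared, these 3 passed, and 10 of 35 members were called (2 higher, 8 lower), against 46.7% of all 435 miRNAs tested there (114 higher, 89 lower). Leaving out either knockout library, which are not part of this comparison, gave 7 calls (2 higher, 5 lower), beside 38.0 and 38.3% of all tested. Leaving out uninduced A, uninduced B or induced B gave none, beside 10.9, 14.3 and 13.6% of all tested, so neither the call of miR-466g nor that of miR-466f held without those libraries. Leaving out wild type A or wild type B left 1 call, miR-466g. Without TMM factors the median of all tested miRNAs moved from 0.03 to -0.17 and miR-466g missed the threshold (1.12, edgeR adjusted p = 0.0569).

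Taking the comparison of the knockout with wild type and that of the induced with the uninduced line together, which share no library, 19 members were higher in the knockout and not called on induction. miR-466f was higher in the knockout and lower on induction, miR-466g was called only on induction, 3 members were lower in the knockout and not called on induction, and 17 were called in neither. Whether the responses differ between the 2 comparisons was not tested.

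The induced AGO1 line was also set against wild type, which asks how far the levels in this line lie from those of wild type cells. Of 41 members, 8 were called higher and 2 lower, against 38.9% of all tested called, 19.2% as higher and 19.8% as lower (edgeR, adjusted p under 0.05). The share of members called was below the background, and the share called higher equal to it within 1 percentage point. The median log2 fold change was 0.19 over members and 0.01 over all tested. Both induced libraries lay above wild type for 18 members and below it for 6, against 40.0% and 36.0% of all tested. This comparison shares its wild type libraries with that of the knockout, so its values are given beside it and not as a second line of evidence.

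The miR-466 3p arms were again among the calls, with 4 of 9 higher and 1 lower. As in the knockout comparison, these names may share reads. miR-466e-3p was at 112 and 90.7 CPM in the induced libraries and at 35.6 and 49.5 CPM in wild type (1.24 ± 0.38, edgeR adjusted p = 0.0267). miR-466a-3p was at 113 and 102 CPM (1.36 ± 0.39, edgeR adjusted p = 0.0204) and miR-466b-3p at 41.1 and 41.9 CPM (1.69 ± 0.49, edgeR adjusted p = 0.0218). All of these libraries were above wild type and below or within the range of the knockout. miR-466g was higher by 1.14 ± 0.35 (edgeR adjusted p = 0.0267), and miR-466c-3p by 1.32 ± 0.43 (edgeR adjusted p = 0.0345).

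Among the abundant members, miR-467c-5p was higher by 0.78 ± 0.26 (edgeR adjusted p = 0.0359), which is less than the 1.69 of the knockout against the same wild type libraries. miR-669a-5p, at 368 and 372 CPM, and miR-669p-5p, at 322.5 and 407 CPM, were higher by 0.92 ± 0.27 and 0.79 ± 0.27 (edgeR adjusted p = 0.0211 and 0.0389). miR-467a-5p, at 315 and 324 CPM, lay within the wild type range. miR-466o-3p stayed low, at 19.7 and 32.9 CPM, a change of -1.76 ± 0.43 (edgeR adjusted p = 0.0111), and miR-669c-5p had one of -1.73 ± 0.46 (edgeR adjusted p = 0.0138). These calls depended on single libraries: without wild type A, the library with the lowest share of these families, 2 members were called and both were lower, beside 20.3% of all miRNAs tested in that fit. Without wild type B there were 4 calls, without induced A 3 and without induced B 1, where 21.0, 20.8 and 14.8% of all tested were called. Leaving out knockout line 1 or line 2 gave 16 each, where 48.4 and 49.6% of all were called, so the number of calls moved in the whole table and not in the members alone. Without TMM factors 4 members were called, beside 38.1% of all tested.

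The balance between the arms of a hairpin was tested after the data were seen, with the 5p and 3p counts of each name in 1 edgeR fit over all 191 hairpin names with enough counts of both arms, of which 21 belong to the 4 families. In knockout against wild type, 5 of the 21 names changed their 5p to 3p ratio, against 29.3% of all names tested (13.1% towards 5p and 16.2% towards 3p), which is not above the background. Where a name stands for several copies, its 5p and 3p reads may come from different ones.

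miR-466o showed the largest of these changes. Its 5p share was 10.9 and 9.7% in wild type, against 42.9 and 45.0% in knockout lines 1 and 2, a change of 2.78 ± 0.71 in the log2 ratio of 5p to 3p (edgeR adjusted p = 0.00362). The groups were far apart, but the knockout shares rest on few reads. Line 1 had 6 counts of the 5p arm and 8 of the 3p arm, and line 2 had 9 and 11. The 3p arm was lower in both knockout libraries. The 5p arm was higher in both without passing its own test (1.36 ± 0.65, edgeR adjusted p = 0.0944). miR-669a also moved towards 5p, from 64.5 and 63.5% to 82.3 and 77.8% (1.20 ± 0.32, edgeR adjusted p = 0.00596). miR-466e moved towards 3p, from 42.3 and 44.4% 5p to 19.0% in line 1 and the same level within 1 percentage point in line 2 (-1.67 ± 0.47, edgeR adjusted p = 0.00769). miR-467d went from 58.1 and 57.2% to 39.1 and 42.7% and miR-467a from 96.9 and 93.6% to 92.5 and 82.4% (edgeR adjusted p = 0.0461 and 0.0359). By contrast, miR-467c stayed at 99.1% or more 5p in every library and miR-669p at 97.5% or more. Leaving out knockout line 2, or either wild type library, 3 names passed, and the change of miR-466o passed in all of these fits.

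**Figure D5:**
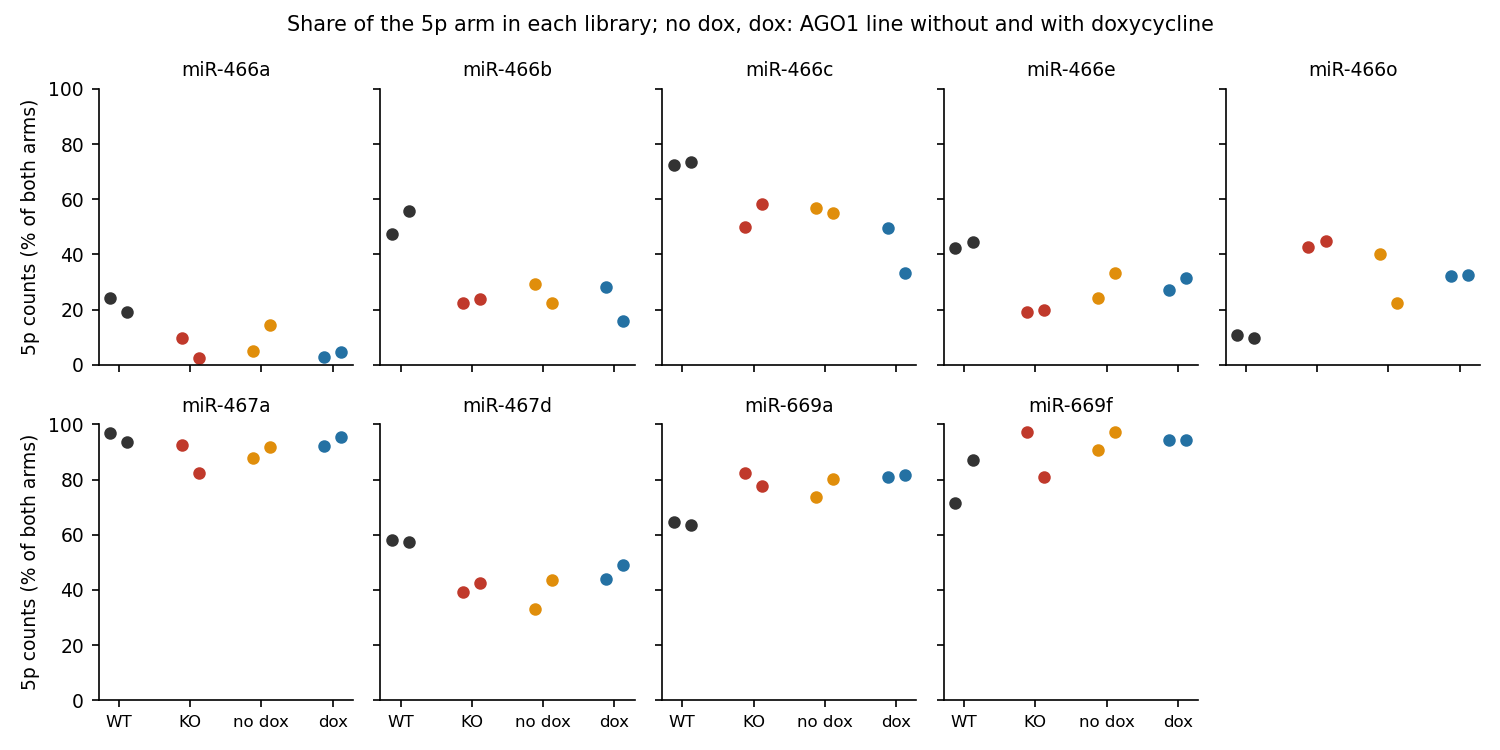
Share of 5p counts among both arms (%, vertical axis from 0 to 100) in each library for the 9 hairpin names called in any comparison; group names as in the plot of CPM. miR-466o rises from about 10% in wild type to 42.9 and 45.0% in the knockout, and miR-466e falls below its wild type shares in all other libraries.

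In the AGO1 line no member name was called for its arm ratio, neither without doxycycline against the knockout nor with against without doxycycline, where 0.524% and 5.76% of all names were called (in the latter 2.09% towards 5p and 3.66% towards 3p). At an unadjusted p under 0.05, edgeR gave 2 and 0 of the 21 names, and 14 and 33 of all 191. The absence of calls does not show that the arm balance was the same. In simulated counts this test missed most of the changes put into the knockout against wild type. The comparisons of the AGO1 line were not simulated. In the induced line against wild type 6 of 21 names were called, against 35.6% of all (15.7% towards 5p and 19.9% towards 3p). miR-466o was again shifted towards 5p (2.08 ± 0.58, edgeR adjusted p = 0.00678), as were miR-669a (1.28 ± 0.28, edgeR adjusted p = 0.000959) and miR-669f. miR-466a, miR-466b and miR-466c shifted towards 3p. miR-466c went from 73.3% 5p over the wild type counts to 43.4% over those of the induced line (edgeR adjusted p = 0.00623). Without wild type B 3 names passed and without induced B 2.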

How the data were processed

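Small RNA was sequenced in duplicate from 4 groups of cells. Per the labels' protocols, libraries were made from total RNA with the Illumina TruSeq small RNA kit. The deposited file holds whole-number counts per mature miRNA with no normalization. The submitters' processing notes name Bowtie and mm10. How reads that match several hairpins were counted, which matters for repeated hairpins, is not stated in the sources used here. The first of its 2 header lines gave the sample of each column.

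CPM were computed from library totals (163467 to 1326638 counts) and TMM factors (0.881 to 1.22). All 475 miRNAs that passed filterByExpr, which hold at least 99.9% of counts, were fitted with edgeR 4.0.16 in R 4.3.3 (quasi-likelihood F test, 2-sided, 4 groups, 8 libraries, 4 residual degrees of freedom). Benjamini-Hochberg adjustment ran over the 475 within each of 4 comparisons, and the SE was taken as the size of a change over the root of its F value. The arm ratio needed 10 counts per arm and 50 of both arms. Both fits were tested on simulated data, with changes put into the knockout group only.

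The rule for named members takes the 8 most abundant, up to 5 rises and 5 falls per comparison among calls whose groups do not overlap and whose CPM average at least 20, and their other arms. Members and lists were chosen with earlier results of these data known. Alternatives were DESeq2 1.42.0, its size factors, no TMM factors, 2 other filters, only the 2 groups compared, the omission of each library and a block for the letters A and B. The arm test was added after the data were seen.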

Additional observations from a re-analysis of the deposited data

How the results depend on the processing

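In the knockout against wild type, members were called in numbers of 16 to 23 under DESeq2, its size factors, no TMM factors, both other filters and the fit of only the 2 groups compared, and of 14 to 27 with each library left out, with 0 to 3 of them lower. In the uninduced line against the knockout no alternative other than leaving out a library made a call, and those gave 0 to 9. In the induced against the uninduced line, the filter at a mean CPM of 20 gave 1 member call, beside 29.1% of all tested. The fit of only the 2 groups compared gave 10, beside 46.7%. Leaving out a library, the median of members differed from that of all tested by -0.28 to -0.11. In the induced line against wild type, no TMM factors gave 4 member calls, beside 38.1% of all tested. Leaving out a library, that difference of medians ranged from -0.19 to 0.67. The median log2 change of the arm ratio in the knockout against wild type was -1.06 to -0.72 over member names with a library left out. Over all names it was -0.28 to -0.05. In the induced line against wild type these medians were -0.48 to -0.22 and -0.035 to -0.004. The cause of these differences was not tested. A replicate block for the letter, A or B, was fitted in the 6 libraries that carry one. It gave 7 member calls on induction (2 higher, 5 lower), beside 40.0% of all tested. In the induced line against wild type it gave 13, beside 51.8% of all tested. Deviations of libraries with the same letter correlated across miRNAs at 0.08 between wild type and the uninduced line. The values were -0.01 between wild type and the induced line and 0.24 between the uninduced and the induced line. Whether a letter marks a shared batch was not tested.

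Outside the 10 most abundant miRNAs, the mean share of the families was 0.588% in wild type, 1.52% in the knockout, 1.03% in the uninduced and 0.775% in the induced line. miR-669a-3p in knockout against wild type changed sign to 0.12 without TMM factors and ranged from -0.57 to 0.25 with a library left out, and miR-466i-3p ranged from -0.030 to 0.31. Over the 28 members checked there were 72 sign changes in 1592 refitted values, 0 of them with a call in either fit. Where a group was left with 1 library, that library is assumed to vary like the other groups. The planned sum over names with the same mature sequence was not run, because only 3 tested members had a sequence. Depth limits the knockout most: 3 counts in line 2 are 15.1 CPM, so falls to below that level rest on few reads.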
